A study of Drosophila melanogaster with 35 samples.

Results

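The data describe how the transcripts of the control Drosophila melanogaster wing changed between 24h and 36h after pupa formation. The comparison holds 8 of the 35 arrays of the series, chosen by their labels alone: 4 control arrays at 24h and 4 at 36h. All animals of the series carried apterous-gal4, UAS-GFP and tubulin-Gal80temp.sens. The control had no further transgene, the line labelled E2F1DP also carried UAS-dE2F1 and UASdDP, and the line labelled Cbt carried UAS-Cabut. Every line was also sampled in the wandering last larval instar (L3), which gives 9 groups of 4 arrays, except E2F1DP at L3 with 3. Flies were raised at 18 °C, and a later shift to 28 °C released the driver from Gal80. The control wings carried the same driver and GFP and had been through the same shift. Each sample was total RNA of 10 dissected wings. The apterous driver acts in the dorsal cell layer of the wing, whereas the RNA came from whole wings.

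The fly wing is a sheet of epithelium that folds into a bilayer during pupal life. Around 24h its cells finish their last divisions and leave the cell cycle, and over the hours that follow they start terminal differentiation, building wing hairs and the apical matrix and cuticle. Cabut is a zinc finger transcription factor, and E2F1 with its partner DP is the activator that drives genes of DNA replication and the cell cycle. The control interval is the background of normal development against which both lines can be read.

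Of 15473 transcripts on the array, 3587 differed between the control stages (23.2% of those tested), 1629 of them higher at 36h (10.5%) and 1958 lower (12.7%). The test was limma's moderated test in 1 model of all 35 arrays, and calls were made where the p-value after Benjamini-Hochberg adjustment over all 15473 was under 0.05. The unadjusted p was under 0.05 for 5356. The spread in that model was estimated over all 9 groups. A fit of only the 8 control arrays of 24h and 36h called 2540 transcripts, and a fit of the 12 control arrays called 3050. Values are log2 intensities, so a difference of 1 is a doubling. The rises reached further than the falls. Among the higher transcripts the median size of the change was 1.07 on the log2 scale, 872 at least doubled and 316 rose at least 4-fold. Of these, 117 rose at least 8-fold and 48 at least 16-fold. Among the lower transcripts the median size was 0.84, 709 fell at least 2-fold, 100 at least 4-fold, 20 at least 8-fold and 3 at least 16-fold. The median change of all transcripts was -0.07. In whole-wing RNA, fewer cells of a type and less RNA per cell cannot be told apart.

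**Figure D1:**
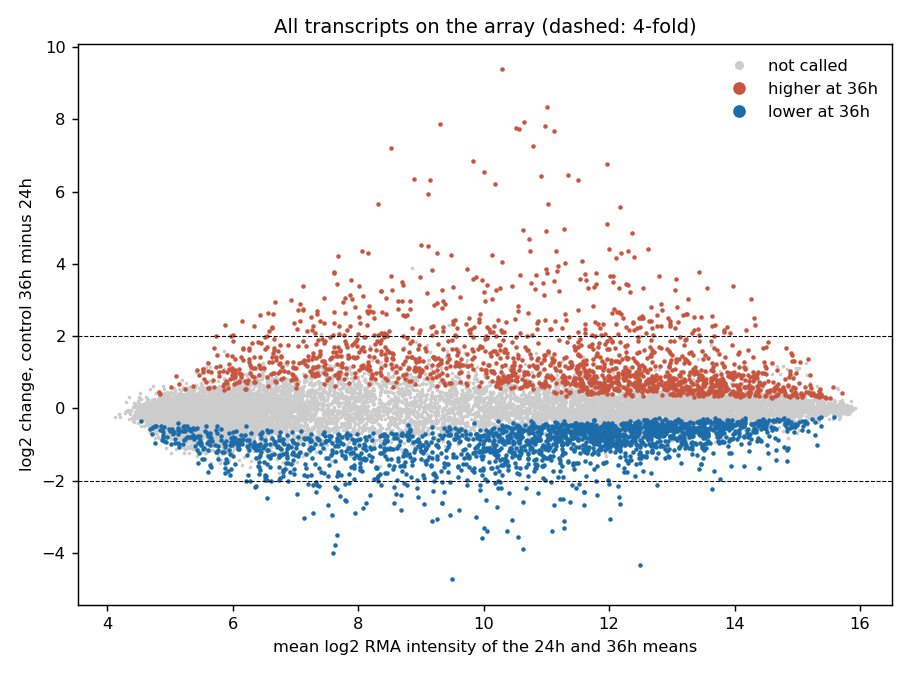
Each point is 1 of the 15473 transcripts, with its mean log2 intensity over the 8 control arrays on the horizontal axis and its log2 change from 24h to 36h on the vertical axis. Coloured points passed the test, 1629 higher and 1958 lower at 36h, and the highest point is a rise of 9.38.

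The groups of arrays were separate for most, but not all, of the called transcripts. All 4 arrays at 36h lay above all 4 at 24h for 1295 of the 1629 rises, and below them for 1535 of the 1958 falls. Over all transcripts, whether called or not, 23.8% had no overlap between the stages, 9.99% upward and 13.8% downward. Part of the range of sizes rests on dim signals. With the lowest 25% of all transcripts by mean (under 6.20 on the log2 scale) taken as dim, 162 of the rises started from a dim mean at 24h and 239 of the falls ended at one. Among the changes of at least 4-fold, 45 of the 316 rises and 15 of the 100 falls had such a dim mean, and the size of those changes is inexact because no background level was used.

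The 24h arrays spread more widely than the 36h arrays. Pearson correlations across transcripts ran from 0.953 to 0.981 among the 6 pairs at 24h, from 0.975 to 0.990 among the 6 pairs at 36h, and from 0.928 to 0.970 among the 16 pairs across the stages. The root mean square deviation of an array from its group mean was 0.395, 0.527, 0.661 and 0.514 for 24h replicates 1 to 4, and 0.246, 0.368, 0.446 and 0.379 for 36h replicates 1 to 4. Replicate 3 at 24h stood apart most. Its median log2 intensity was 9.28, against 9.69 to 10.02 for the other 24h arrays and 9.63 to 9.74 for the 36h arrays. Replicate 4 at 24h had the highest median, 10.02. Without it 3852 transcripts were called, 2095 higher and 1757 lower, so the rises then outnumbered the falls. The labels call the replicates independent.

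Each array's name holds a number that several arrays share. It is taken here to mark the slide, which the labels do not state. So read, the 24h samples came from 3 slides and the 36h samples from 4, with 0 in common, and within the control arrays slide and stage cannot be told apart. With slide as a fixed term, estimated through the other groups on the same slides, 1999 transcripts were called, 947 higher and 1052 lower. The median SE of a change was 0.315 in that fit and 0.235 without the term. The names also hold a code from 1 to 4, whose meaning the labels do not state and which is taken here as the position on the slide. Code 4 was carried by 24h replicates 2 and 3 and 36h replicates 2, 3 and 4. Without those 5 arrays, 2 remained at 24h, both with code 1, and only 1 at 36h, with code 3. In a fit without them code and stage therefore cannot be told apart, and the lone array is assumed to vary like the other groups. Of all transcripts, 68.4% had the same sign in that fit as between the stages within code 4, where the slides also differed.

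The deposited features are FlyBase transcript IDs with no gene names, and the gene table used here paired only 44 of the 15473 with a gene. Of these, 17 were listed under 1 gene and 27 under several. The table marks them by an upstream or a main open reading frame of the transcript, and they were not picked by their values. All 44 are named below. Of the 330 entries of 19 gene lists, on replication, mitosis, cell cycle exit, cuticle, wing hairs, pigment, ecdysone response, matrix, polarity, patterning, metabolism, the nucleolus and cell type markers, 4 were matched: LanA, alpha-Spec, Fatp1 and sle. None of the 71 marker entries in the 7 marker lists was matched, so the tissue was not checked against its markers, and replication and mitosis genes were not analysed here. Genome positions are left out, since the annotation of the array was not given in the sources used here.

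Of the 17 transcripts with 1 gene, 5 rose, 2 fell and 10 did not pass the test. The shares that rose and fell, 29.4% and 11.8%, stand beside 10.5% and 12.7% of all transcripts. The median change of the 17 was 0.36, against -0.07 for all transcripts. The risers were Fatp1, SuUR, alpha-Spec, rdx and CG16974. HDAC3 and Dyrk3 fell. For 5 of the 17 the stages did not overlap, and 4 of those 5 were called. Over all transcripts 23.8% had no overlap.

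Fatp1 (FBtr0080133), which encodes a fatty acid transport protein, rose most. Its log2 intensity was 11.43, 10.87, 11.14 and 11.65 in the 24h arrays and 13.60, 13.94, 13.95 and 13.63 in the 36h arrays. Every 36h array lay above every 24h array, with a gap of 1.95 between the nearest pair, which is wider than the spread within either stage. The change was 2.50 ± 0.17 (SE, n = 4 and 4), a 5.67-fold rise (limma adjusted p = 3.93e-12). At L3 its mean was 10.97 ± 0.05 (SD, n = 4), and the step from L3 to 24h was 0.30 (limma adjusted p = 0.18). Among the control stages, then, the rise that passed the test lay between 24h and 36h.

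SuUR (FBtr0076203), the suppressor of under-replication that slows replication of heterochromatin in polytene cells, had log2 intensities of 10.41, 9.95, 8.67 and 10.68 at 24h and 10.63, 10.83, 10.97 and 10.91 at 36h. The stages overlapped, since 24h replicate 4 lay above 36h replicate 1, and 24h replicate 3 was far below the rest. The change was 0.90 ± 0.25 (limma adjusted p = 0.00929), a 1.87-fold rise. Without 24h replicate 3 it was 0.48 and did not pass the test (limma adjusted p = 0.0597). Nor did it pass in a fit of the 8 control arrays alone, where the SE was 0.40 (limma adjusted p = 0.177). With the 12 control arrays the limma adjusted p was 0.100. The L3 mean of SuUR, 10.91 ± 0.26, was near that of 36h.

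Other named transcripts rose by less. Rdx (FBtr0082871) encodes roadkill, an adaptor of a Cul3 ubiquitin ligase that acts on the Hedgehog pathway factor Ci, and read 14.60, 14.47, 14.26 and 14.79 at 24h and 14.91, 15.04, 15.16 and 15.02 at 36h. The stages did not overlap, and the change was 0.50 ± 0.14 (limma adjusted p = 0.00955), 1.42-fold. With slide as a fixed term it was 0.32 (limma adjusted p = 0.32), and in a fit of the 8 control arrays alone the limma adjusted p was 0.051. CG16974 (FBtr0080489) read 13.59, 13.38, 13.13 and 13.71, then 13.91, 13.72, 14.01 and 14.13, so the stages were parted by only 0.01. Its change was 0.49 ± 0.15 (limma adjusted p = 0.0136), and 0.38 without 24h replicate 3 (limma adjusted p = 0.0715).

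Alpha-Spec (FBtr0072789) encodes alpha-spectrin of the membrane skeleton under the epithelial cell surface. It read 13.20, 12.82, 12.98 and 13.55 at 24h and 13.67, 13.76, 13.50 and 14.00 at 36h. The groups overlapped slightly, since 24h replicate 4 lay above 36h replicate 3. The change was 0.60 ± 0.20 (limma adjusted p = 0.0323), 1.51-fold. It missed the threshold when any of 24h replicates 1, 2 or 3 or 36h replicates 1, 2 or 4 was left out, with limma adjusted p between 0.05 and 0.109.

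HDAC3 (FBtr0078767), a histone deacetylase of a corepressor complex, fell by little. It read 13.69, 13.50, 13.71 and 13.68 at 24h and 13.44, 13.38, 13.25 and 13.28 at 36h, with no overlap and a gap of 0.06. The change was -0.31 ± 0.11 (limma adjusted p = 0.0421), a 1.24-fold fall, and it missed the threshold without any of 24h replicates 1, 3 or 4 or 36h replicates 2, 3 or 4 (limma adjusted p between 0.0602 and 0.113). Dyrk3 (FBtr0100406), a protein kinase, read 13.87, 14.08, 13.24 and 13.31 at 24h and 13.11, 12.33, 13.26 and 12.90 at 36h. The stages overlapped at 36h replicate 3. The change was -0.72 ± 0.25 (limma adjusted p = 0.0354), a 1.65-fold fall, and without any of 24h replicates 1 or 2 or 36h replicates 2 or 4 the limma adjusted p lay between 0.0596 and 0.157.

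The other 10 did not pass the test. The ubiquitin-activating enzyme Uba1 read 13.48, 13.40, 13.59 and 13.90 at 24h and 14.05, 13.96, 13.92 and 14.02 at 36h. Its stages were parted by 0.01 and its change was 0.39 ± 0.16 (limma adjusted p = 0.0746). The axon guidance gene fend had a change of 0.51 ± 0.24 (limma adjusted p = 0.13), the chromatin remodeller kis 0.36 ± 0.18 (limma adjusted p = 0.16), and the 2 subunits of the GATOR2 complex of nutrient sensing, Wdr24 and mio, 0.38 ± 0.18 and -0.17 ± 0.23 (limma adjusted p = 0.132 and 0.633). Without 24h replicate 4, Uba1 and Wdr24 passed the test (limma adjusted p = 0.0293 and 0.0124), as did kis without 36h replicate 2 (limma adjusted p = 0.0459). The replacement histone gene His4r had a change of -0.13 ± 0.31 (limma adjusted p = 0.806), and CG31178 of -0.03 ± 0.50 (limma adjusted p = 0.977), its 24h replicate 2 reading 7.68 against 5.50 to 5.64 in the others.

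**Figure D2:**
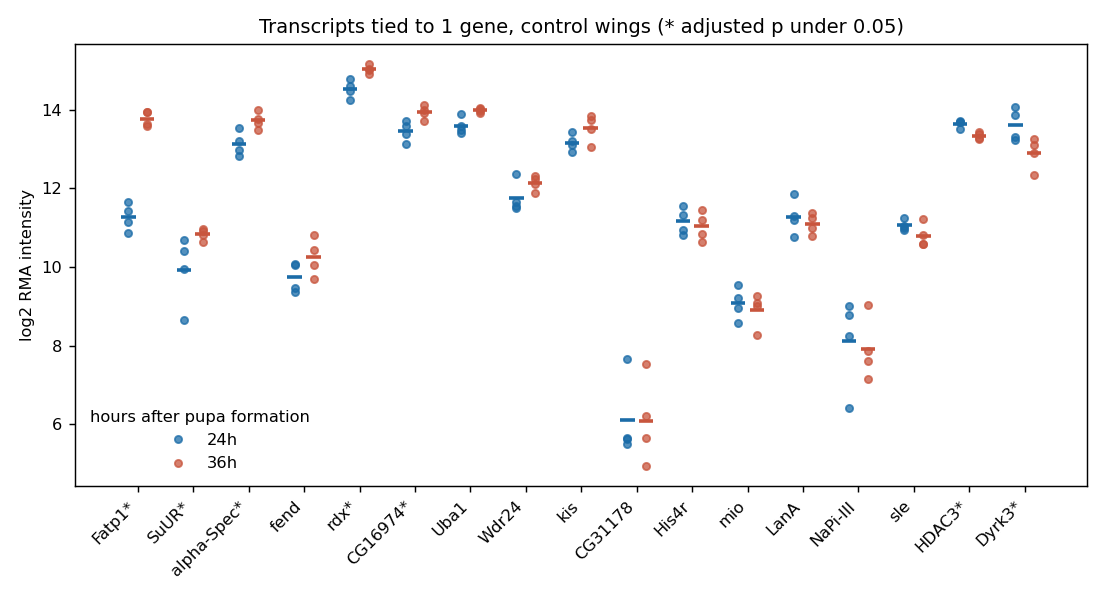
Log2 intensity (vertical axis) of the 17 transcripts with 1 gene in each control array at 24h (blue) and 36h (red), with 1 point per array, a bar at each group mean and a star on names that passed the test. Fatp1 lies between 10.87 and 11.65 at 24h and between 13.60 and 13.95 at 36h, while the points of LanA, NaPi-III and sle overlap between the stages.

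Of the remaining named transcripts, 3 had their large step before 24h. LanA (FBtr0077014), which encodes the laminin alpha chain of the basement membrane, stood at 13.62 ± 0.32 at L3 (SD, n = 4), 11.29 ± 0.45 at 24h and 11.10 ± 0.26 at 36h. The step from L3 to 24h was -2.34 (limma adjusted p = 1.53e-10) and the one from 24h to 36h -0.18 ± 0.21 (limma adjusted p = 0.571). NaPi-III (FBtr0076213), a sodium-dependent phosphate cotransporter by its name, stood at 12.11 ± 0.11, 8.12 ± 1.18 and 7.92 ± 0.80, with steps of -3.99 (limma adjusted p = 1.59e-09) and -0.20 ± 0.40 (limma adjusted p = 0.766). Sle (FBtr0082231), a nucleolar protein gene, stood at 12.81 ± 0.18, 11.06 ± 0.14 and 10.80 ± 0.30, with steps of -1.75 (limma adjusted p = 1.71e-08) and -0.26 ± 0.20 (limma adjusted p = 0.372). The steps share the 24h arrays. Over all transcripts 36.5% were called between L3 and 24h.

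Of the 27 transcripts listed under several genes, 3 rose, 8 fell and 16 did not pass the test. They fall outside the rule for named genes and were added after values were seen, all 27 together. Each is 1 transcript that the table lists under more than 1 gene, 25 of them under 2, so a value cannot be given to any of its genes alone. The shares that rose and fell, 11.1% and 29.6%, stand beside 10.5% and 12.7% of all transcripts, and the median change was -0.20. All 11 that were called had stages without overlap, as had 1 more that was not called, Mocs2A/Mocs2B, the molybdopterin synthase subunits (change -0.40, limma adjusted p = 0.202). Over all transcripts 23.8% had no overlap.

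The 8 that fell changed by between -0.77 and -0.48. CG42488/CG5116, which had the lowest adjusted p, read 11.65, 11.51, 11.73 and 11.74 at 24h and 10.87, 11.03, 10.60 and 11.14 at 36h, a change of -0.75 ± 0.13 (limma adjusted p = 9.3e-05), or 1.68-fold. Rad1/Sws1, which holds the gene of a subunit of the checkpoint clamp loaded at DNA damage, read 10.09, 9.97, 9.55 and 10.00 at 24h and 9.51, 9.31, 9.09 and 9.24 at 36h. Each 36h array lay below each 24h array. The change was -0.61 ± 0.14 (limma adjusted p = 0.00124), or 1.53-fold, and it followed a step of -1.80 from the L3 mean of 11.70 (limma adjusted p = 5.75e-12).

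CG7950/Rpp14a, with the gene of a subunit of RNase P, the enzyme that trims tRNA precursors, read 13.35, 13.20, 13.59 and 13.43 at 24h and 12.83, 12.79, 12.45 and 12.98 at 36h, a change of -0.63 ± 0.14 (limma adjusted p = 0.00155). Polr3K/Tcs1, with a subunit of RNA polymerase III, which transcribes tRNA and 5S rRNA genes, read 11.78, 11.67, 11.65 and 12.31, then 11.26, 11.41, 10.79 and 11.23, a change of -0.68 ± 0.16 (limma adjusted p = 0.00273). In both, the highest 36h array lay below the lowest 24h array. PIG-P/Tcs6, with an enzyme subunit of the first step of GPI anchor synthesis, read 14.92, 14.97, 15.05 and 14.76, then 14.10, 13.95, 14.01 and 14.61. Its change was -0.76 ± 0.22 (limma adjusted p = 0.012), and 36h replicate 4 lay nearest to the 24h arrays.

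The remaining falls were closer to the threshold. CG42497/Tim10, with a chaperone of mitochondrial protein import, changed by -0.64 ± 0.22 (limma adjusted p = 0.035), CG42496/Ppcdc, with an enzyme of coenzyme A synthesis, by -0.48 ± 0.17 (limma adjusted p = 0.0385), and CG30100/CG42372 by -0.77 ± 0.26 (limma adjusted p = 0.0322). Tim10 and Ppcdc missed the threshold without any of 24h replicates 1 to 3 or 36h replicates 2 or 3, and CG30100/CG42372 without 24h replicate 1, 2 or 4 or 36h replicate 1 or 3. Their limma adjusted p then lay between 0.0571 and 0.128, and Tim10 also missed it without 36h replicate 1 and Ppcdc without 36h replicate 4. The 3 that rose were CG45085/CG8026 (0.70 ± 0.19, limma adjusted p = 0.00815), CG7071/Muted, with a subunit of the BLOC-1 complex of lysosome-related organelles (0.43 ± 0.11, limma adjusted p = 0.00427), and CG42306/Gint3 (0.39 ± 0.12, limma adjusted p = 0.0202). CG45085/CG8026 read 11.67, 11.26, 10.73 and 11.70 at 24h and 12.25, 11.82, 12.25 and 11.84 at 36h, and lost its call without 24h replicate 3 (limma adjusted p = 0.0573). CG42306/Gint3 lost its call without replicate 2 of 24h or of 36h (limma adjusted p = 0.0847 and 0.0717).

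With slide as a fixed term, 11 of the 18 calls among the 44 transcripts ended, with limma adjusted p between 0.0598 and 0.377. Those that held were Fatp1, alpha-Spec, Dyrk3, CG7071/Muted, CG42306/Gint3, CG7950/Rpp14a and CG42488/CG5116.

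**Figure D3:**
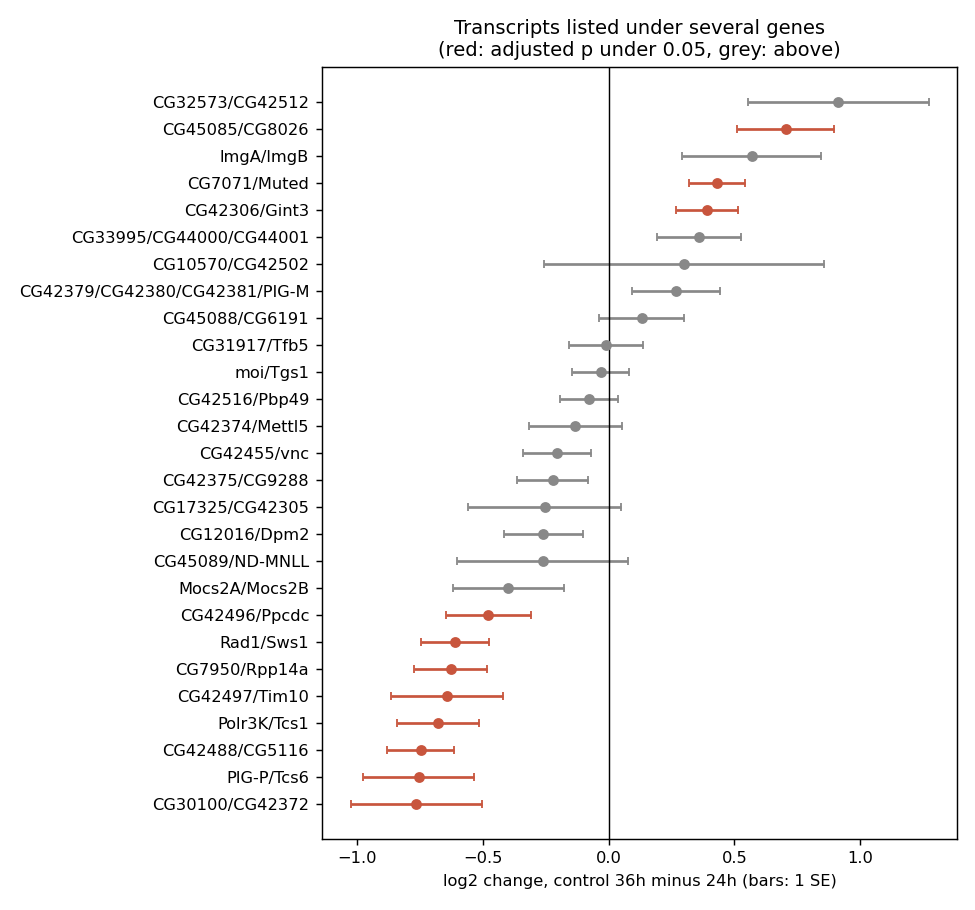
Log2 change from 24h to 36h in control for each of the 27 transcripts listed under several genes, with its SE as a bar. Red points passed the test and grey ones did not: 8 red points lie below 0, between -0.77 and -0.48, and 3 above it, between 0.39 and 0.70.

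Among the 16 that did not pass the test were CG32573/CG42512, with a change of 0.91 (limma adjusted p = 0.0662, and 0.00598 without 24h replicate 3), and lmgA/lmgB, a gene of the anaphase-promoting complex that ends mitosis. The latter read 13.40, 13.34, 12.54 and 13.47 at 24h and 13.91, 13.27, 13.99 and 13.86 at 36h, a change of 0.57 (limma adjusted p = 0.143). The changes of moi/Tgs1, CG31917/Tfb5 and CG42516/Pbp49, which hold genes of RNA cap modification or telomere capping, of transcription factor TFIIH and of a snRNA promoter complex, lay between -0.08 and -0.01. The differences of CG33995/CG44000/CG44001, CG42379/CG42380/CG42381/PIG-M and CG45088/CG6191 were 0.36, 0.27 and 0.13 (limma adjusted p = 0.125, 0.29 and 0.621). Those of CG42374/Mettl5, with an rRNA methyltransferase, and CG42455/vnc, with an N-acetyltransferase subunit, were -0.13 and -0.20 (limma adjusted p = 0.657 and 0.298). CG17325/CG42305, CG12016/Dpm2, with a subunit of dolichol-phosphate-mannose synthase, and CG45089/ND-MNLL, with a subunit of respiratory complex I, each had a difference of -0.26 (limma adjusted p = 0.594, 0.25 and 0.625). In none of these 8 were the stages free of overlap.

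The largest changes were in transcripts the gene table did not name, of which 2 risers and 2 fallers are given by ID. FBtr0100257 read 6.04, 5.23, 5.55 and 5.58 at 24h and 14.70, 15.37, 15.01 and 14.83 at 36h, a change of 9.38 ± 0.71 (limma adjusted p = 4.39e-11). FBtr0078614 read 6.50, 5.71, 7.65 and 7.54, then 15.11, 15.29, 15.23 and 15.09, a change of 8.33 ± 0.59 (limma adjusted p = 1.09e-11). The L3 means, 5.23 ± 0.26 and 6.86 ± 1.74 (SD, n = 4), were near those at 24h. For FBtr0078614, however, L3 replicate 1 read 9.26, above every 24h array. FBtr0100257 was dim at 24h, so the size of its change is inexact.

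The largest falls were of transcripts whose control mean was highest at 24h. FBtr0085737 read 11.83, 11.90, 11.89 and 11.81 at 24h and 7.20, 6.91, 7.12 and 7.28 at 36h, a change of -4.73 ± 0.47 (limma adjusted p = 6.86e-09), with an L3 mean of 7.23. FBtr0077182 read 14.79, 14.98, 14.72 and 14.17, then 10.66, 10.07, 9.74 and 10.85, a change of -4.33 ± 0.41 (limma adjusted p = 2.31e-09), with an L3 mean of 7.24. From L3 to 24h these had risen by 4.63 and 7.43.

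As groups, the strong risers were low at L3 and 24h alike. The median over the 316 transcripts that rose at least 4-fold was 8.20 at L3, 8.57 at 24h and 11.95 at 36h in control. Over the 100 that fell at least 4-fold it was 11.23, 10.80 and 8.20. The 24h and 36h values chose these transcripts and are a description. For the wider sets the medians were 10.54, 10.77 and 12.18 over the 1629 rises and 12.10, 11.67 and 10.70 over the 1958 falls.

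**Figure D4:**
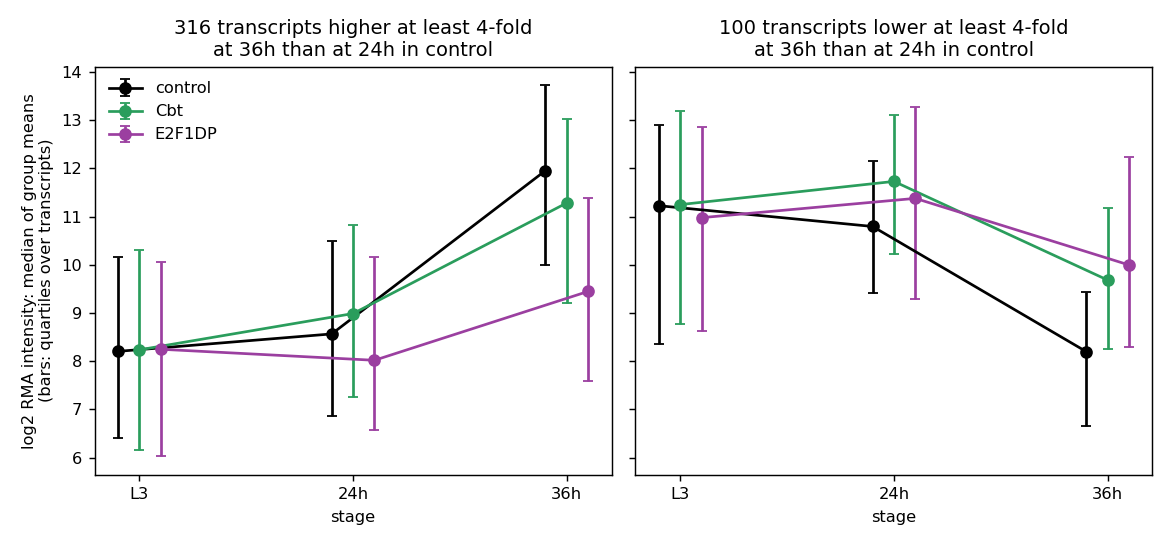
Median and quartiles of the group mean log2 intensity at L3, 24h and 36h for the 316 transcripts that rose and the 100 that fell at least 4-fold in control, in each line. The risers' median moves from 8.57 to 11.95 in control, from 8.99 to 11.28 in Cbt and from 8.02 to 9.45 in E2F1DP.

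The same interval in the other lines was measured on arrays that the control comparison did not use, although all share 1 estimate of the spread. Between 24h and 36h, 3237 transcripts were called in Cbt (20.9%) and 2462 in E2F1DP (15.9%). Of the 1629 control rises, 870 were also called higher in Cbt (53.4%, against 8.27% of all transcripts) and 12 lower (0.737%, against 12.7%). In E2F1DP 537 were called higher (33.0%, against 9.18% of all) and 59 lower (3.62%, against 6.73%). Those 870 were 68.0% of the rises called in Cbt, and the 537 were 37.8% of those in E2F1DP. Leaving aside the test, 91.3% of the control rises had the same sign in Cbt and 78.9% in E2F1DP, where 41.6% and 47.1% of all transcripts were above 0.

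Of the 1958 control falls, 1108 were also called lower in Cbt (56.6%, against 12.7% of all) and 7 higher (0.358%, against 8.27%). In E2F1DP 477 were called lower (24.4%, against 6.73% of all) and 91 higher (4.65%, against 9.18%). Of the 316 rises of at least 4-fold, 246 were called higher in Cbt (77.8%, against 8.27% of all). In E2F1DP 141 were (44.6%, against 9.18%). Of the 100 such falls, 86 were called lower in Cbt (86%, against 12.7%) and 45 in E2F1DP (45%, against 6.73%). Median changes over the 316 were 2.63 in control, 1.80 in Cbt and 0.77 in E2F1DP. The control value is raised by the choice of members on these arrays, so nothing is read from its being larger. Whether the counts of Cbt and E2F1DP differ from each other was not tested. As a description over 15473 transcripts from arrays of 1 platform, the changes in control correlated with those in Cbt at r = 0.712 and with those in E2F1DP at r = 0.436.

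The test of the difference itself called fewer transcripts. The change in Cbt minus that in control passed the threshold for 311 transcripts (2.01%), 107 with a higher value in Cbt (0.692%) and 204 with a lower one (1.32%). The change in E2F1DP minus that in control passed it for 1436 (9.28%), 818 higher (5.29%) and 618 lower (3.99%). These splits by direction depend on scaling. With each array centred on its median, the counts were 120 higher and 153 lower for Cbt and 521 higher and 790 lower for E2F1DP. The same step turned the split of the changes within the lines, from 1279 higher and 1958 lower to 1654 and 1192 in Cbt, and from 1420 and 1042 to 980 and 1590 in E2F1DP. In control it gave 1542 higher and 1696 lower. Both differences were computed against the same control arrays.

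Among the 44 transcripts with a gene, Fatp1 had the clearest difference between the lines. Its mean went from 11.75 ± 0.20 to 13.27 ± 0.43 in Cbt (SD, n = 4), a change of 1.52 (limma adjusted p = 1.14e-07), and from 11.23 ± 0.23 to 11.47 ± 0.17 in E2F1DP, a change of 0.24 (limma adjusted p = 0.374). The difference from the control change was -0.99 ± 0.24 in Cbt (limma adjusted p = 0.0219) and -2.26 ± 0.24 in E2F1DP (limma adjusted p = 7.04e-08). The Cbt difference lost its call without replicate 2 or 3 of control at either stage, Cbt 24h replicate 3 or Cbt 36h replicate 2 or 4 (limma adjusted p between 0.0527 and 0.0734). It also did so with only the 16 pupal arrays of control and Cbt (limma adjusted p = 0.231). The E2F1DP difference passed the test under every alternative run. The gene fend went from 9.31 to 8.39 in E2F1DP, a change of -0.92 (limma adjusted p = 0.00701), while the Cbt change was 0.71 (limma adjusted p = 0.0339). The difference of the E2F1DP change from that of control was -1.43 ± 0.34 (limma adjusted p = 0.00482). With only the 16 pupal arrays of control and E2F1DP, the fend difference missed the threshold (limma adjusted p = 0.0547).

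Some transcripts with several genes also differed between lines. Rad1/Sws1 went from 10.49 to 9.35 in Cbt (change -1.14, limma adjusted p = 3.74e-07) and from 11.76 to 11.78 in E2F1DP (change 0.02, limma adjusted p = 0.954). The E2F1DP difference from control was 0.63 ± 0.19 (limma adjusted p = 0.035) and lost its call without any of 10 of the 16 arrays (limma adjusted p between 0.0503 and 0.0993), which were control 24h replicates 1, 2 and 4, control 36h replicates 2 to 4, E2F1DP 24h replicates 1 and 2 and E2F1DP 36h replicates 3 and 4. CG10570/CG42502 did not pass the test in control, where it read 7.66, 9.36, 5.97 and 7.87 at 24h and 7.66, 8.99, 8.43 and 6.99 at 36h, and went from 10.53 to 7.67 in Cbt. That difference was -3.16 ± 0.79 (limma adjusted p = 0.0261), and -2.58 without control 24h replicate 3 (limma adjusted p = 0.0744). It also lost its call without control 36h replicate 2 or 3, Cbt 24h replicate 3 or Cbt 36h replicate 4 (limma adjusted p between 0.0642 and 0.0768). CG42375/CG9288 went from 13.15 to 13.65 in E2F1DP, a difference of 0.72 ± 0.20 from control (limma adjusted p = 0.0178). With median centring the differences of CG42375/CG9288, Rad1/Sws1 and, in Cbt, Fatp1 missed the threshold (limma adjusted p = 0.197, 0.201 and 0.0802). With slide as a fixed term all but that of Fatp1 in E2F1DP missed it. With only the 16 pupal arrays of control and the line, those of Rad1/Sws1 and CG10570/CG42502 missed it (limma adjusted p = 0.138 and 0.112). That of Rad1/Sws1 also missed it with array position as a term or with an intensity trend (limma adjusted p = 0.129 and 0.056).

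Of the unnamed examples, only the 2 risers passed the test of the difference from control, and only in E2F1DP. All 4 were chosen by the size of their control change, and the same control arrays enter the differences. That choice favours a smaller change in the other lines, so the differences and their p-values are a description. FBtr0100257 stood at 5.40 and 5.41 at 24h and 36h in E2F1DP, a difference from the control change of -9.37 ± 1.01 (limma adjusted p = 9.14e-08). In Cbt it reached 11.02 ± 3.02 at 36h, so the 4 arrays of that group were far apart. FBtr0078614 rose by 8.17 in Cbt (limma adjusted p = 3.93e-11) and by 4.71 in E2F1DP (limma adjusted p = 6.65e-07). The difference of the E2F1DP change from that of control was -3.61 ± 0.84 (limma adjusted p = 0.00391). In Cbt the test of the difference gave limma adjusted p = 0.0705 for FBtr0100257 and 0.978 for FBtr0078614. FBtr0085737 changed by -3.19 in Cbt (limma adjusted p = 9.31e-06) and by -4.09 in E2F1DP (limma adjusted p = 1.37e-07). FBtr0077182 changed by -2.28 in Cbt (limma adjusted p = 0.000119) and by -3.98 in E2F1DP (limma adjusted p = 1.77e-08). The tests of the difference for these 2 had limma adjusted p between 0.0598 and 0.818, which does not show that the lines acted alike.

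The place of each array along the control change was also measured. Each array was projected on the line from the control mean at 24h, set to 0, to the control mean at 36h, set to 1, with an array's own values left out of the means. The control arrays lay at 0.157, 0.155, 0.108 and 0.344 at 24h and at 0.900, 0.924, 0.972 and 0.828 at 36h. Cbt arrays lay at 0.0498, -0.0455, 0.0831 and 0.213 at 24h and at 0.752, 0.645, 0.849 and 0.645 at 36h. E2F1DP arrays lay at -0.0947, -0.105, -0.309 and 0.116 at 24h and at 0.353, 0.267, 0.346 and 0.267 at 36h. At 36h the E2F1DP arrays thus lay below all Cbt arrays, and of these only replicate 3, at 0.849, lay above the lowest control array. No test was made, since the control arrays fix the line. Control L3 arrays lay between -0.164 and 0.0727.

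**Figure D5:**
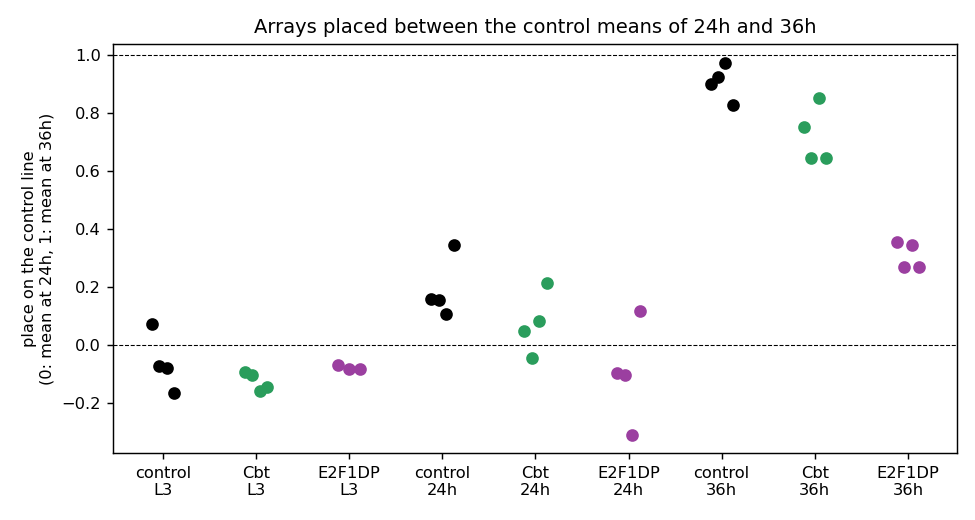
Place of each array on the line from the control mean at 24h (0) to the control mean at 36h (1), by line and stage, with 1 point per array. At 36h the control arrays lie from 0.828 to 0.972, the Cbt arrays from 0.645 to 0.849 and the E2F1DP arrays from 0.267 to 0.353.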

How the data were processed

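Cy3-labelled total RNA was read on NimbleGen arrays of 1 colour. The authors deposited 1 linear intensity per transcript and array, which per the submitters' processing notes came from RMA, and a series table of the same values as log2 numbers. RMA corrects background, equalises arrays and summarises probes. Its version, its settings and the annotation were not given in the sources used here. The largest difference between the series table and log2 of the deposited intensity was 5.00001e-09. Of the 15473 transcripts, 10111 have 5 probes, 5359 have 4 and 3 have 3. Intensities of the 8 control pupal arrays ran from 15.0 to 64469, and the medians of the 35 arrays from 9.25 to 10.02 on the log2 scale. No array was a copy of another (highest correlation 0.996). Precision is limited by how many arrays there are.

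The log2 series table was fitted in R 4.3.3 with limma 3.58.1, as 1 model of 9 group means over 35 arrays. The fit used empirical Bayes moderation (26 residual and 2.86 prior degrees of freedom) and was checked on simulated data. The simulation gave all arrays of a transcript the same spread and no slide effect. That check therefore could not test unequal spread between groups or an effect of slide. Calls use Benjamini-Hochberg adjusted p under 0.05. Python 3.11.15, numpy 2.4.6, pandas 2.3.3 and matplotlib 3.10.9 made tables and figures. IDs were matched to synonyms in RefSeq's Release 6 gene table, where 44 appear and 15429 do not. The rule for named genes takes all transcripts with exactly 1 gene if they are under 100, and from the unnamed ones the 2 largest rises and 2 largest falls without overlap. The members and lists were chosen with earlier results of these data known. Alternatives were other sets of arrays, slide, position and replicate number as terms, median centring, quantile normalization, a filter on dim transcripts, array weights, the per-array files, an intensity trend and leaving out each array.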

Additional observations from a re-analysis of the deposited data

Results flagged for a closer look

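In 94 groups of 4 control values examined (levels of the 44 transcripts with a gene at each stage, and 3 measures of the arrays), 3 held an array far from the others. The groups share arrays and are not independent, so this count cannot be set against a chance rate of about 1 in 20. All 3 were at 24h. For CG31178, replicate 2 stood high at 7.68, with a gap of 0.935 of the whole range. For HDAC3, replicate 2 stood low at 13.50, with a gap of 0.871 of the range. For lmgA/lmgB, replicate 3 stood low at 12.54, with a gap of 0.863 of the range.

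The interval from 24h to 36h differed between lines by the test of the difference (limma, adjusted p under 0.05) for 311 transcripts between Cbt and control, and for 1436 between E2F1DP and control. Among transcripts with a gene, the change in Cbt minus that in control was -0.985 for Fatp1 and -3.16 for CG10570/CG42502. The change in E2F1DP minus that in control was -2.26 for Fatp1, -1.43 for fend, 0.721 for CG42375/CG9288 and 0.628 for Rad1/Sws1. The 4 control 24h arrays that enter each of these differences spread more widely than the 4 at 36h, and their part in the differences was not tested beyond leaving out each array.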

How the results depend on the processing

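Under the alternatives run, the control count of 3587 lay between 1999 with slide as a fixed term and 4662 with array weights. With slide as a fixed term, 947 transcripts were higher, 1052 lower and 157 lower at least 4-fold, 1695 were called in Cbt, and the differences from control fell to 20 for Cbt and 645 for E2F1DP. Calls shared with control then numbered 439 rises and 453 falls in Cbt and 292 rises and 308 falls in E2F1DP. With only the 16 pupal arrays of control and Cbt, 1297 control transcripts were lower, 2142 were called in Cbt, 622 falls were shared with Cbt and 113 differences from control were called. With array weights, 4914 were called in E2F1DP, 2393 differences were called there, and 970 rises and 1064 falls were shared. In these 3 fits the cause was not tested. The smaller set of arrays also has fewer degrees of freedom, whose part in the counts was not tested.

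Leaving out 1 of the 8 control pupal arrays at a time gave 2745 to 3852 control calls, 1306 to 2095 higher and 1383 to 1899 lower. At least 4-fold, 290 to 369 were higher and 78 to 125 lower. Arrays of other lines enter the spread too, and without E2F1DP 24h replicate 3 the control calls were 3910. Leaving out 1 of the line's own 8 pupal arrays gave 2302 to 3761 calls in Cbt and 1911 to 2943 in E2F1DP. For differences and shared calls, 1 of the 16 pupal arrays of control and the line was left out. The differences from control ran from 204, without Cbt 36h replicate 4, to 370 for Cbt and from 1183 to 1537 for E2F1DP. Shared rises ran from 712 to 992 in Cbt and from 440 to 763 in E2F1DP, and shared falls from 833 to 1218 and from 364 to 588. Replicate numbers do not pair the stages: correlations of same-numbered deviations were 0.0823, -0.276, -0.189 and 0.0940, and 0 of 4 arrays correlated best with its own number. With the replicate block 3378 control transcripts were called, and the calls of HDAC3, Dyrk3 and CG42496/Ppcdc ended (adjusted p = 0.0656, 0.0538 and 0.0728), as did that of the Fatp1 difference between Cbt and control (adjusted p = 0.0705). Of 18 calls among transcripts with a gene, Fatp1, CG7950/Rpp14a and CG42488/CG5116 held under all 22 alternatives, 15 ended under at least 1 and 0 reversed. Slide as a fixed term ended 11, the 16 pupal arrays of control and Cbt alone 11, the 8 control arrays alone 10, median centring 5, and 4 each the 12 control arrays and the 16 pupal arrays of control and E2F1DP. Of 26 without a call, 6 gained one under some alternative. The 4 unnamed examples kept their calls throughout.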
